A study of Mus musculus with 23 samples.

Results

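The genes examined were 10 antioxidant genes grouped around the transcription factor Nrf2, namely Nfe2l2, Keap1, Gclc, Gclm, Slc7a11, Gsr, Srxn1, Txnrd1, Nqo1 and Hmox1. They were chosen by name: every probe that was not a control and carried one of these symbols was taken, which gave 16 of 56605 probes and 10 of 37074 gene names on the array. Liver RNA of 23 male C57Bl6/J mice was hybridised to Agilent 1-colour arrays, 1 array per mouse, to ask how the liver responds to activation of the nuclear receptor PXR and what remains of that response without the receptor. Wild-type (WT) mice and mice that lack PXR (Pxr-/-, backcrossed to the same background) were given pregnenolone 16α-carbonitrile (PCN), a ligand of the rodent receptor. PCN mice received 100 mg/kg in corn oil into the abdomen each day for 4 days, control (CONT) mice received corn oil alone, and the livers were taken 6 h past the final dose, in a state that the labels call fed and the study's text semi-fasted. There were 6 control and 5 PCN mice of the wild type, and 6 of each treatment among the Pxr-/- mice. WT mice were bought at 6 weeks of age and Pxr-/- mice, whose age was not given in the sources used here, came from a colony kept in the facility, so genotype and colony cannot be told apart. All had 2 weeks to adapt.

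Nrf2, the product of Nfe2l2, is a leucine zipper factor that the adaptor Keap1 binds and hands over for degradation. Oxidants and electrophiles modify cysteines of Keap1, Nrf2 then accumulates in the nucleus, pairs with small Maf proteins and binds antioxidant response elements of genes for glutathione synthesis, thioredoxin recycling, quinone reduction and heme breakdown. In the liver this programme serves the clearance of reactive drug metabolites and of peroxides, and control of Nrf2 lies largely in the stability of the protein, which RNA does not show.

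Between 29510 and 33321 probes per array were well above background. The hepatocyte marker list was measured in full (12 of 12 genes). The log2 of its summed signal was 20.62 to 20.90 in WT CONT and 20.60 to 20.70 in WT PCN mice. It was 20.70 to 20.84 in Pxr-/- CONT and 20.72 to 20.83 in Pxr-/- PCN mice. With PCN in WT mice, the median log2 change of these 12 markers was -0.08, with 3 of 12 above 0, each read from its brightest probe. Fga was called higher there, where 4.25% of all genes were. The largest change on a brightest probe was 0.04, so this call came from another probe of Fga. By adjusted p alone, 3 markers were lower in WT mice. In Pxr-/- mice Apoa1 and Fga were called higher, where 1.6% of all genes were, with a median of -0.01 and 6 of 12 above 0. The difference between the PCN responses of the genotypes was called for Ttr, lower in WT mice, where 0.29% of all genes were lower. The median of this difference was -0.22, with 1 of 12 above 0. Under PCN, Tat and Ttr were higher in Pxr-/- than in WT mice, where 0.841% of all genes were higher. By adjusted p alone 5 of the 12 were higher, and the median was 0.27 with 9 of 12 above 0. The single probe of Nr1i2, the gene of PXR, did not separate the genotypes (control mice, -0.03, limma adjusted p = 0.977), and whether it lies in the deleted part is not given in the sources used here, so Pxr-/- names mice by their labels. Cyp3a11, the best known target of PXR, rose by 3.55 log2 units with PCN in WT mice (adjusted p = 4.12e-10) and was at 0.31 in Pxr-/- mice (adjusted p = 0.431). Of the 6 stellate cell markers, 2 rose in both genotypes, the collagens Col1a1 and Col3a1, and no other was called. Of all genes, 4.25% rose in WT and 1.6% in Pxr-/- mice. The median change of the 6 was 0.09 in WT mice (4 of 6 above 0, lowest -0.47) and 0.19 in Pxr-/- mice (6 of 6 above 0). By adjusted p alone, 1 further marker was lower in WT mice. The log2 summed signal of the list was 11.54 to 12.26 in WT CONT, 12.43 to 14.03 in WT PCN, 11.50 to 12.12 in Pxr-/- CONT and 11.64 to 13.45 in Pxr-/- PCN mice. Cholangiocyte markers were at 10.50 to 12.20 in WT CONT, 11.68 to 12.96 in WT PCN, 10.80 to 11.70 in Pxr-/- CONT and 11.13 to 12.51 in Pxr-/- PCN mice. Their median change was 0.73 in WT mice, with 1 of 5 measured genes (Sox9) called higher, against 4.25% of all genes. It was 0.62 in Pxr-/- mice, with none called. The part of these cells in the results below was not tested. In whole liver, fewer cells of a type and less RNA per cell cannot be told apart.

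Of the 16 probes, 11 were kept, and each of these was well above background on all 23 arrays, so none passed through 1 group alone. They covered 9 of the 10 genes, with 2 probes each for Nfe2l2 and Txnrd1. None was saturated on any array. Slc7a11, the cystine transporter that feeds glutathione synthesis, has 4 probes on chromosome 3 (between 50169700 and 50246845, mm9) and none was kept. Its raw median signals ran from 20 to 69.5, where the dimmest probe called well above background on an array lay between 28 and 41. A second Hmox1 probe, aimed at another transcript, was not well above background on any array, with raw median signals of 26 to 38.

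Promoter windows were read to show what Nrf2 could recognise at these genes. RefSeq windows of build GRCm38.p6, from 250 bases before to 50 bases after a start, were found for 7 of the 10 genes, and for Gsr, Hmox1 and Gclc none was given. They were searched on both strands for the core letters of the antioxidant response element, TGACNNNGC or TGAGNNNGC. The cores differ in the fourth letter, so no position matches both on a strand, though matches on opposite strands may overlap. Over all windows, 9126 of 32841 (27.8%) held at least 1 match, and among the genes examined 5 of 9 windows did, those of Nfe2l2, Gclm, Srxn1, Slc7a11 and 1 of the 3 windows of Txnrd1. Srxn1 had 3 matches, with first bases at -158, -45 and 29 relative to the start, and the other genes 1 each. The windows of Keap1 and Nqo1 held none in these 300 bases. The stretches before the start are shown for Srxn1, whose signal rose with PCN in WT mice, for Gclm, which has a match but was not called, and for the gene of the regulator itself, each 5′ to 3′ on the strand of the gene with the matches in capitals. They lie at chr2:152105274-152105523 (plus strand), chr3:122245307-122245556 (plus strand) and chr2:75704664-75704913 (minus strand).
Srxn1: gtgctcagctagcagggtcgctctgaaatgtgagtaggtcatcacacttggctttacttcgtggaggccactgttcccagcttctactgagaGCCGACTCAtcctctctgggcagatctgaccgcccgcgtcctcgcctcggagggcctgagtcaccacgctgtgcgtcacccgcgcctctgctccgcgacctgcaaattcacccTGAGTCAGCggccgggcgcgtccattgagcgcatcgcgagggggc
Gclm: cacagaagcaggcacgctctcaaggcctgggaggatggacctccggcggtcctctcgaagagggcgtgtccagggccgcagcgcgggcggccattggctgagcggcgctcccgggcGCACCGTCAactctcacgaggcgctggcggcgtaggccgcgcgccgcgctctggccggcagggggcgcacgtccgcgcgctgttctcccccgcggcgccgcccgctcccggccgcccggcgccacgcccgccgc
Nfe2l2: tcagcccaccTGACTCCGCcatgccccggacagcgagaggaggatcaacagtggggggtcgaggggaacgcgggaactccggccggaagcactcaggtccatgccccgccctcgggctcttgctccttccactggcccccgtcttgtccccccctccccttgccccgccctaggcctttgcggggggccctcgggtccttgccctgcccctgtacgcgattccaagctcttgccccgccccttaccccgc
Letters in a window are a description of the sequence and show no binding.

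With PCN in WT mice, 3 of the 9 measured genes rose, Gsr, Srxn1 and Hmox1, and none fell. A gene was called when a probe had an adjusted p of at most 0.05 and a fold change above 1.5, and by this rule 4.25% of all 21056 genes tested rose and 2.83% fell. The median log2 change was 0.05 over the 9 genes, each read from its brighter probe, and -0.02 over all genes tested, and 6 of the 9 changes were above 0. Without PXR none of the 9 rose and 1 fell, Nfe2l2 by its second probe, where 1.6% of all genes rose and 0.95% fell. The median change there was -0.02 over the 9 genes and -0.01 over all genes. The response differed between genotypes for 2 of the 9, Gsr and Srxn1, both higher in WT mice, where 0.883% of all genes were higher and 0.29% lower. In control mice no gene of the 9 differed between genotypes (0.337% of all genes did), whereas in PCN mice Gsr and Srxn1 were lower in Pxr-/- than in WT mice, where 1.54% of all genes were lower and 0.841% higher. By the adjusted p alone, with no limit on the fold change, 5 of the 9 passed in WT mice (Gclc and the second Nfe2l2 probe, both lower, joined the 3), against 28.2% of all genes. The comparisons share groups, so these counts are not separate pieces of evidence.

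**Figure D1:**
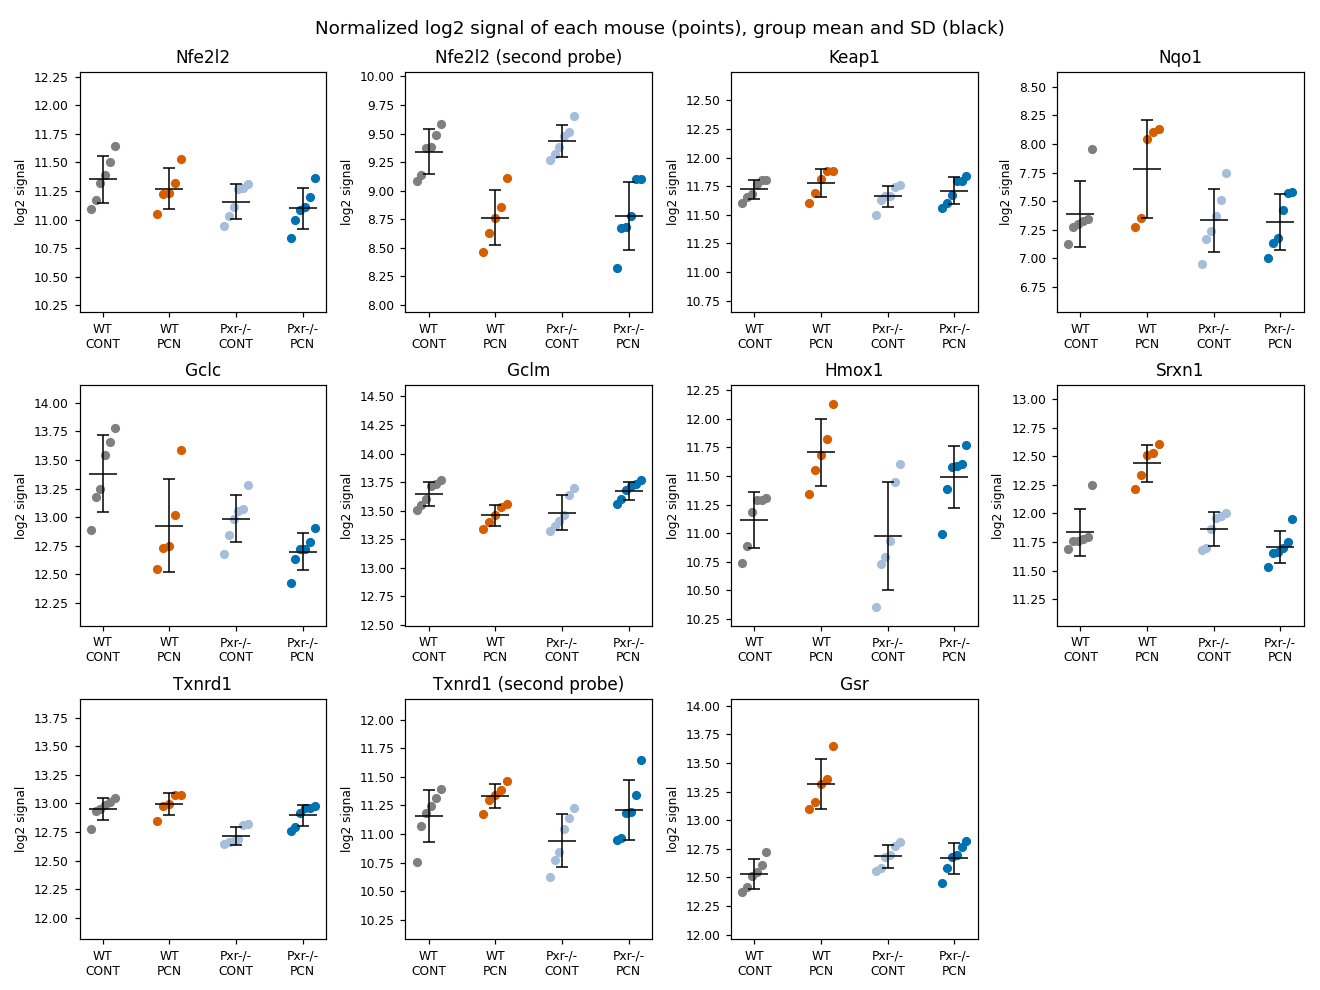
Normalized log2 signal (y axis, of the same span in each panel) of the 11 kept probes in the 4 groups, with 1 point per mouse and the group mean and SD in black. The 5 WT PCN mice lie above all other mice for Gsr (13.10 to 13.65), and the second Nfe2l2 probe is lower with PCN in both genotypes.

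Nfe2l2, the gene of Nrf2, gave different pictures on its 2 probes. The brighter probe (chromosome 2, 75513771 to 75513830, mm9, designed to NM_010902) had a lowest, median and highest log2 signal of 11.09, 11.36 and 11.64 in the 6 WT CONT mice, and the 5 WT PCN mice were at 11.05, 11.22, 11.23, 11.32 and 11.53. For Pxr-/- mice the values were 10.95, 11.19 and 11.32 in CONT and 10.84, 11.10 and 11.36 in PCN mice. The groups overlapped throughout, and the change with PCN was -0.08 in WT (limma 95% confidence interval -0.30 to 0.15) and -0.06 in Pxr-/- mice (-0.27 to 0.15).

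The second Nfe2l2 probe (75529291 to 75529350, 15460 bases from the first) was designed to another transcript, ENSMUST00000152371. It read 9.08, 9.38 and 9.58 (lowest, median, highest) in WT CONT mice and 8.46, 8.63, 8.76, 8.86 and 9.11 in the WT PCN mice. Only the highest WT PCN mouse reached into the range of the controls. In Pxr-/- CONT mice it read 9.27, 9.43 and 9.66, and in Pxr-/- PCN mice 8.32, 8.73 and 9.10, with no overlap. The change was -0.57 in WT mice (SE 0.13, adjusted p = 0.00362), just inside the fold limit and therefore not called, and -0.66 in Pxr-/- mice (SE 0.13, adjusted p = 0.00451), which was called. Of all genes, 1.58% were lower with no overlap on their brightest probe in this genotype. On its own brighter probe Nfe2l2 overlapped, so the share and the second probe are not like measures. The changes of the genotypes differed by 0.09 (adjusted p = 0.885, interval -0.30 to 0.47). The WT change was called without WT CONT replicate 3 (-0.62, adjusted p = 0.00394) or 6 (-0.63, adjusted p = 0.00248) and without WT PCN replicate 1 (-0.66, adjusted p = 0.00152) or 2 (-0.60, adjusted p = 0.00761). What part of the transcripts of the gene this probe reads was not analysed here. The fall in Pxr-/- mice was not called without Pxr-/- PCN replicate 4 (-0.56, adjusted p = 0.0135) or in either washing batch alone (-0.53, adjusted p = 0.201, and -0.79, adjusted p = 0.101).

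Keap1, which holds Nrf2 down, showed no change as large as the fold limit. Its probe (chromosome 9, 21035292 to 21035732) read 11.61, 11.72 and 11.81 in WT CONT mice (lowest, median, highest) and 11.60, 11.69, 11.81, 11.88 and 11.88 in WT PCN mice. The change was 0.05 in both WT (interval -0.10 to 0.19) and Pxr-/- mice (-0.09 to 0.18), and their difference was -0.0011 with an interval of -0.20 to 0.20, so a change past 1.5-fold (0.58) lay outside each interval.

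Glutathione is built by glutamate-cysteine ligase, a dimer of the catalytic subunit Gclc and the modifier subunit Gclm. Neither rose with PCN. Gclc (chromosome 9, 77641296 to 77641355) read 12.88, 13.40 and 13.78 in WT CONT mice (lowest, median, highest), and the WT PCN mice were at 12.54, 12.73, 12.75, 13.02 and 13.59. Of the 5 PCN mice, 3 were below all controls and 1 lay near the top of their range. The change of -0.47 (SE 0.16, adjusted p = 0.0369) was smaller than the fold limit. It passed that limit without WT CONT replicate 1 (-0.60, adjusted p = 0.00674) and without WT PCN replicate 4 (-0.62, adjusted p = 0.00479). Gclc was at -0.29 in Pxr-/- mice (adjusted p = 0.28), and the difference between genotypes was -0.18 (interval -0.64 to 0.28).

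Gclm (chromosome 3, 121967737 to 121967796) had fitted changes of opposite sign, -0.19 in WT (SE 0.08, adjusted p = 0.0715) and 0.19 in Pxr-/- mice (SE 0.07, adjusted p = 0.11). WT CONT mice ran from 13.51 to 13.77 and WT PCN mice were at 13.34, 13.40, 13.46, 13.53 and 13.56. Pxr-/- CONT mice ran from 13.32 to 13.70 and Pxr-/- PCN mice from 13.56 to 13.77. No comparison of Gclm was called, and the difference of the responses was -0.38 (adjusted p = 0.0694, interval -0.60 to -0.17). The WT value was 0.0043 in place of -0.19 when groups were normalized in stacked columns and 0.015 in the authors' values, so its sign rests on the scaling.

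Gsr, glutathione reductase, returns oxidised glutathione to its reduced form with NADPH, and it had the largest change of the 9 genes with PCN in WT mice. Its probe (chromosome 8, 34808488 to 34808547) read 12.37, 12.53 and 12.73 in WT CONT mice (lowest, median, highest) and 13.10, 13.16, 13.32, 13.36 and 13.65 in WT PCN mice. Every WT PCN mouse was above every control, a separation that 5.85% of all genes showed in this direction. The change was 0.79 (SE 0.09, adjusted p = 4.12e-06), or 1.73-fold with an interval of 1.52 to 1.98. Among Pxr-/- mice the values were 12.55, 12.69 and 12.81 in CONT and 12.45, 12.69 and 12.82 in PCN mice, and the groups lay on top of each other (-0.02, interval -0.20 to 0.16).

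The response of Gsr differed between genotypes by 0.81 (SE 0.13, adjusted p = 0.000944). Among PCN mice, Gsr was lower in Pxr-/- than in WT mice (-0.66, adjusted p = 0.000111), and the highest Pxr-/- value, 12.82, lay under the lowest WT value, 13.10, a separation in this direction that 3.67% of all genes showed. Among control mice the genotypes differed by 0.15 (adjusted p = 0.526). Within the washing batches, the WT rise was 0.86 (adjusted p = 0.00231) and 0.72 (adjusted p = 0.0195), and the genotype difference of the response was 0.92 (adjusted p = 0.0659) and 0.69 (adjusted p = 0.134), so the latter missed the threshold when each batch stood alone. Without WT PCN replicate 4, the difference between PCN mice was -0.57, inside the fold limit.

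Srxn1, sulfiredoxin, repairs overoxidised peroxiredoxins. Its probe (chromosome 2, 151937009 to 151937068) read 11.69, 11.77 and 12.25 in WT CONT mice (lowest, median, highest) and 12.21, 12.33, 12.51, 12.53 and 12.61 in WT PCN mice. WT CONT replicate 2, at 12.25, stood apart from the other controls, whose highest was 11.79, and it alone made the groups overlap. The change was 0.61 (SE 0.10, adjusted p = 0.000146), 1.53-fold with an interval of 1.33 to 1.76, so the lower bound lies under the 1.5-fold limit. Without WT CONT replicate 2 it was 0.69 (adjusted p = 1.70e-05), and without WT PCN replicate 4 it was 0.56 (adjusted p = 0.000627) and no longer past the fold limit.

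Srxn1 of Pxr-/- mice read 11.68, 11.91 and 12.00 in CONT and 11.53, 11.68 and 11.95 in PCN mice, and these ranges overlapped (-0.16, adjusted p = 0.348). The response differed between genotypes by 0.77 (SE 0.13, adjusted p = 0.00266), and in PCN mice the signal of Pxr-/- mice was lower by 1.67-fold (-0.74, adjusted p = 4.99e-05), with no overlap. Within washing batches the difference of the response was 0.78 (adjusted p = 0.112) and 0.77 (adjusted p = 0.141). The WT rise was 0.65 (adjusted p = 0.00925) in the first and 0.58 (adjusted p = 0.0591) in the second. The window of Srxn1 held the most matches to the antioxidant response element core among the 7 genes with a window. Its match at 29 lies past the start, outside the stretch shown above. For Gsr, Hmox1 and Gclc no window was given.

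Txnrd1, the cytosolic thioredoxin reductase, did not follow Srxn1. Its brighter probe (chromosome 10, 82360230 to 82360289) ran from 12.77 to 13.04 in WT CONT mice and read 12.84, 12.98, 12.99, 13.07 and 13.08 in WT PCN mice. In Pxr-/- mice it ran from 12.65 to 12.82 in CONT and from 12.76 to 12.98 in PCN mice. The change was 0.04 in WT (interval -0.09 to 0.18) and 0.18 in Pxr-/- mice (interval 0.05 to 0.31, adjusted p = 0.0873). The other probe (82338379 to 82338438), for the same transcript, gave 0.16 (adjusted p = 0.386) and 0.27 (adjusted p = 0.185), and neither was called in any comparison.

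Nqo1, the quinone reductase that is often used to read Nrf2 activity, missed the threshold. Its probe (chromosome 8, 109912440 to 109912499) had raw median signals of 121.5 to 332. WT CONT mice read 7.12, 7.31 and 7.96 (lowest, median, highest), and WT PCN mice read 7.27, 7.35, 8.04, 8.10 and 8.13, with a gap after the second. The pair of low values came from washing batch 1, which also held the mouse at 8.13. The change was 0.42 in WT mice (SE 0.16, adjusted p = 0.053, interval 0.10 to 0.74) and -0.02 in Pxr-/- mice (adjusted p = 0.969, interval -0.32 to 0.29). The difference of the responses, 0.44, was not called (adjusted p = 0.358, interval -0.01 to 0.88). In PCN mice, Nqo1 was at -0.49 in Pxr-/- relative to WT mice (adjusted p = 0.0526), which was called as -0.69 with the authors' deposited values (adjusted p = 0.00558) and with stacked normalization (adjusted p = 0.00676), and as -0.59 without WT PCN replicate 1 (adjusted p = 0.0249). Without WT CONT replicate 2, which was the highest control here too, the WT change was 0.51 (adjusted p = 0.0216) and still inside the fold limit.

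Hmox1, the inducible heme oxygenase, rose with PCN in WT mice, and its change in Pxr-/- mice was not called. Its probe (chromosome 8, 77624406 to 77624466) read 10.74, 11.23 and 11.31 in WT CONT mice (lowest, median, highest) and 11.35, 11.55, 11.69, 11.82 and 12.13 in WT PCN mice. The lowest PCN mouse was just above the highest control. In Pxr-/- CONT mice it read 10.35, 10.86 and 11.61, the widest spread of any of the 4 groups, and in Pxr-/- PCN mice 10.99, 11.58 and 11.77. The WT change was 0.59 (SE 0.19, adjusted p = 0.0304), 1.51-fold with an interval of 1.14 to 1.99, and the Pxr-/- change was 0.51 (SE 0.18, adjusted p = 0.0994). Their difference was 0.08 with an interval of -0.47 to 0.63, a span that holds 0 as well as a 1.5-fold difference in favour of WT mice.

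The WT call of Hmox1 lay at both limits and was lost in many settings. It was not called in washing batch 1 (0.71, adjusted p = 0.109) or batch 2 alone (0.49, adjusted p = 0.257), with normexp background correction (0.57, adjusted p = 0.0329), or without the filter on dim probes (0.59, adjusted p = 0.0505). Nor was it called without WT CONT replicate 1 (0.51, adjusted p = 0.0809) or 5 (0.54, adjusted p = 0.0694), WT PCN replicate 3 (0.47, adjusted p = 0.106) or 4 (0.57, adjusted p = 0.0616), or Pxr-/- CONT replicate 1 (0.58, adjusted p = 0.0195). Conversely, the Pxr-/- change was called without Pxr-/- CONT replicate 4 (0.64, adjusted p = 0.0307). Kupffer cells, the macrophages of the liver that take up red cells, are rich in this enzyme, and all 12 of their markers were measured. The log2 of their summed signal was 15.34 to 16.30 in WT CONT, 15.19 to 16.82 in WT PCN, 15.16 to 16.20 in Pxr-/- CONT and 15.31 to 16.36 in Pxr-/- PCN mice. None of the 12 was called with PCN in either genotype. Their median changes were 0.13 in WT and 0.31 in Pxr-/- mice, where 9 of 12 and 12 of 12 were above 0, and their part in the Hmox1 values was not tested.

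**Figure D2:**
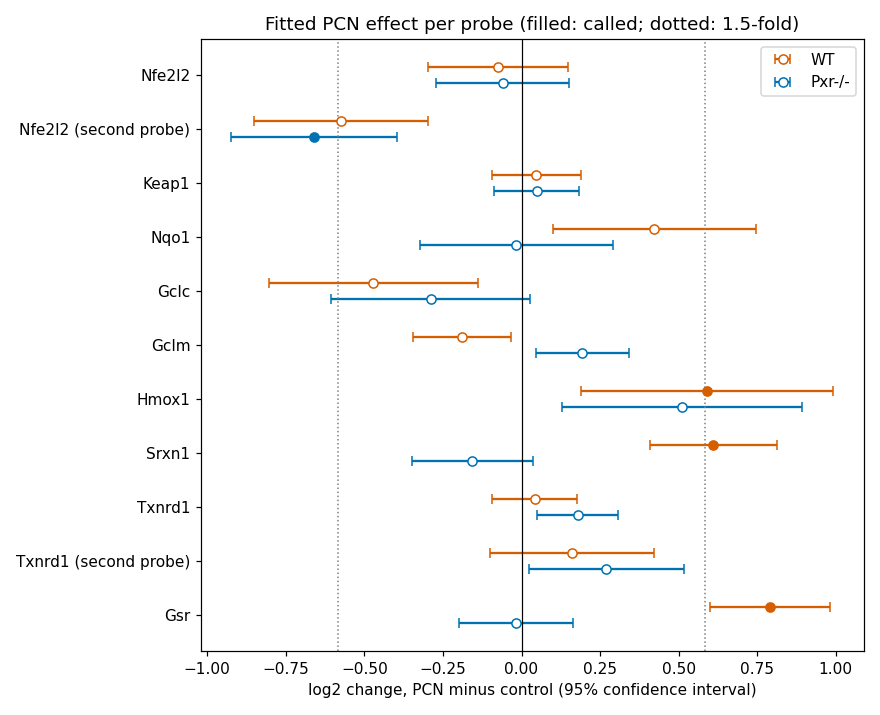
Fitted log2 change with PCN (x axis, limma, with 95% confidence intervals) of each kept probe in WT and Pxr-/- mice, filled where called, with dotted lines at 1.5-fold. Gsr and Srxn1 part between genotypes (0.79 against -0.02 and 0.61 against -0.16), while Hmox1 and the second Nfe2l2 probe have overlapping intervals.

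Single mice stood high for several of these genes. WT CONT replicate 2 had the highest control value of Gsr (12.73), Srxn1 (12.25), Nqo1 (7.96) and the brighter Nfe2l2 probe (11.64), but not of Hmox1 (11.18) or Gclm, where it was the lowest (13.51). The same mouse was the highest WT control for the glutathione transferases Gsta2 (13.70), Gstm1 (16.44) and Gstm3 (17.21) and for Cyp3a11 (14.02), a level that stayed far under the lowest WT PCN value of Cyp3a11, 16.90. WT PCN replicate 4 was the highest PCN mouse for Gsr (13.65), Srxn1 (12.61), Nqo1 (8.13) and Gclc (13.59). Without WT CONT replicate 2, Gsr, Srxn1 and Hmox1 were still called in WT mice. Without WT PCN replicate 4, Gsr alone of these was, and Gclc was called as lower (-0.62, adjusted p = 0.00479).

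**Figure D3:**
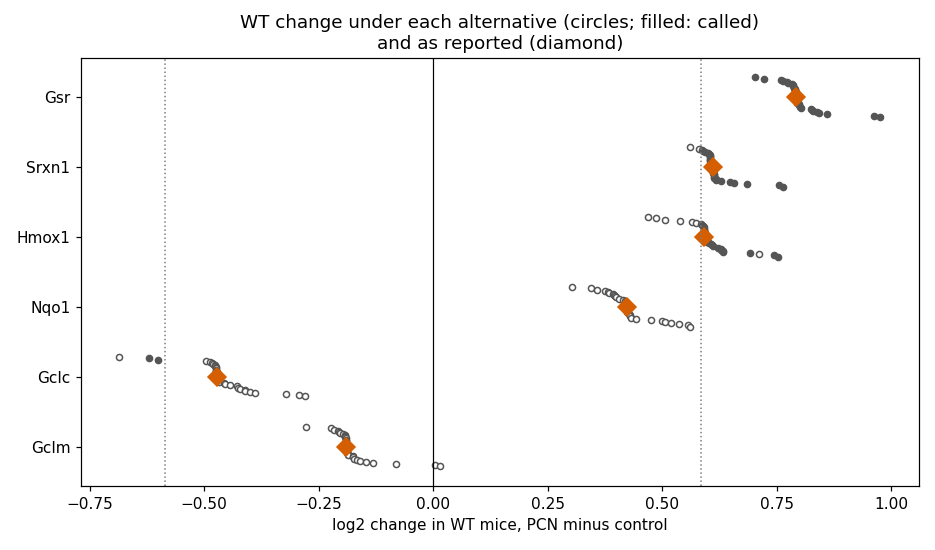
Log2 change with PCN in WT mice (x axis) of 6 genes as reported (diamond) and under each other way of processing or with a single array left out (circles, filled where called), with dotted lines at 1.5-fold. Gsr stays past the limit throughout, Srxn1 and Hmox1 sit at it, and Gclm reaches 0.

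Around these 10 genes, 7 lists of other genes of the pathway were read, 69 genes of which 67 were measured. With PCN in WT mice 11 of the 67 rose and 1 fell, where 4.25% of all genes rose and 2.83% fell. In Pxr-/- mice none rose and 1 fell, where 1.6% of all genes rose and 0.95% fell. Of the 7 lists, the one of other detoxification genes linked to Nrf2 held 8 of the 11 rises, out of 17 genes measured. Its median change was 0.46 in WT and 0.10 in Pxr-/- mice. Many of its genes are also known targets of PXR and of related receptors, so their place in this list does not assign them to Nrf2.

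Within that list the largest rises in WT mice were those of the glutathione transferases Gsta2 (2.61, SE 0.54, adjusted p = 0.00149), Gstm3 (1.68, SE 0.15, adjusted p = 1.31e-07) and Gstm1 (1.66, SE 0.16, adjusted p = 4.52e-07). Signals of such closely related genes can include each other. Gsta2 spread widely within groups, from 9.91 to 13.70 in WT CONT mice and from 13.28 to 15.33 in WT PCN mice, and these ranges overlapped. Gstm3 and Gstm1 did not overlap between WT groups, and each differed in its response between genotypes (1.41, adjusted p = 0.000494, and 1.51, adjusted p = 0.000508). The other genes called in WT mice were Abcc3, an efflux pump of conjugates, Gsta4, Cbr3, Ephx1 and Htatip2. Among these lists the same 8 genes were the ones that were lower in Pxr-/- than in WT mice under PCN, against 1.54% of all genes. Both comparisons use the same WT PCN arrays. The difference between the PCN effects was called for 4 of the 8, Abcc3, Gsta4, Gstm1 and Gstm3, where 0.883% of all genes were higher. For Gsta2, Cbr3, Ephx1 and Htatip2 it was not called.

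Of 11 further genes of glutathione synthesis and use, Ggct (0.64, adjusted p = 0.0019) and Glrx, a glutaredoxin (0.59, adjusted p = 0.00387), rose in WT mice and none fell, with a median of -0.05. Of all genes, 4.25% rose and 2.83% fell. In Pxr-/- mice no gene of this list was called. Mean signals there in CONT and PCN mice were 9.79 and 10.17 for Ggct, and 9.61 and 9.71 for Glrx. The difference between the PCN effects was called for no gene of the list. Chac2, which breaks glutathione down, was at -0.57 (adjusted p = 5.08e-05), just inside the fold limit. Chac1, another enzyme of glutathione breakdown, was higher in Pxr-/- than in WT mice under PCN (1.28, adjusted p = 0.0319), where 0.841% of all genes were higher. Its response to PCN was called in neither genotype, and the difference of the responses was not called. The mean of CONT mice was 10.31 in Pxr-/- and 9.80 in WT mice. None of 11 thioredoxins and peroxiredoxins, 4 genes of superoxide and peroxide removal and 6 of heme breakdown and iron storage was called with PCN. Of the thioredoxins and peroxiredoxins, 2 were higher and 3 lower by adjusted p alone in WT mice, with a median of -0.04. Of all genes, 28.2% passed by this rule in either direction. In Pxr-/- mice 2 were lower and none was higher. The mitochondrial peroxiredoxin Prdx3 was among the higher ones in WT mice, with a small value (0.33, adjusted p = 0.00164). It alone of the list passed for the difference between genotypes (0.49, adjusted p = 0.00744).

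NADPH, which Gsr and Txnrd1 consume, is supplied by a list of 7 genes. Pgd, an enzyme of the pentose phosphate pathway, rose in WT mice from 10.27, 10.54 and 10.71 (lowest, median, highest) in CONT to 10.86, 10.96, 11.19, 11.56 and 11.79 in PCN mice, with no overlap (0.79, SE 0.13, adjusted p = 0.000187). In Pxr-/- mice Pgd ran from 10.57 to 11.22 in CONT and from 10.58 to 11.09 in PCN mice, a change of -0.06. The difference of the response between genotypes was 0.85 (SE 0.18, adjusted p = 0.0143). The mean of CONT mice was 10.92 in Pxr-/- and 10.50 in WT mice, so the controls also enter this difference. Pgd was not called between genotypes in control or in PCN mice. Me1, malic enzyme, fell in Pxr-/- mice (-1.03, adjusted p = 0.0119) and was at 0.07 in WT mice, and the difference of these changes was not called (1.11, adjusted p = 0.116). Of 11 partners of Nrf2 and Keap1, none rose and 1 fell in WT mice, where 2.83% of all genes fell. This was Btrc, an adaptor of another ubiquitin ligase of Nrf2, at -0.59 on 1 of its probes (adjusted p = 0.000124) and 0.05 on the other. By adjusted p alone 1 partner was higher and 2 lower in WT mice, and 3 were lower in Pxr-/- mice. The small Maf gene Mafg, not called, ran from 13.04 to 13.50 in WT CONT and 12.63 to 13.00 in WT PCN mice. In Pxr-/- mice it ran from 13.06 to 13.32 in CONT and 12.41 to 13.00 in PCN mice.

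**Figure D4:**
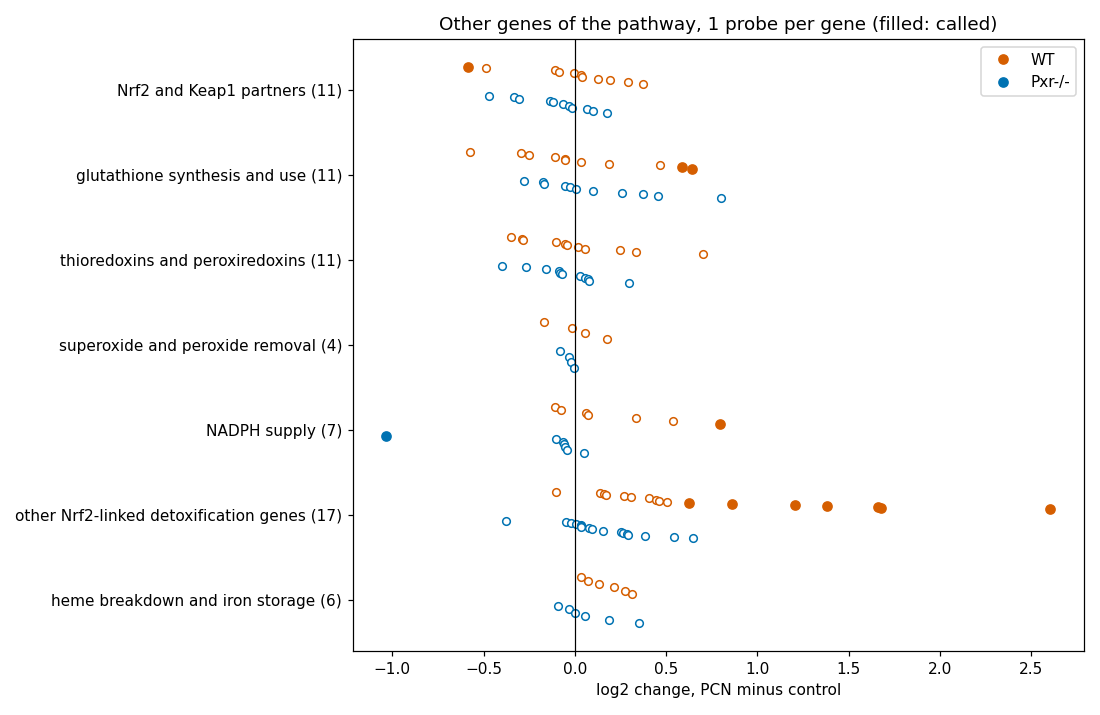
Log2 change with PCN (x axis) of the genes of 7 other lists of the pathway, 1 point per gene, WT above and Pxr-/- below in each row, filled where called, with the number of genes in brackets. The filled WT points gather in the list of other detoxification genes, whose largest is Gsta2 (2.61).

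The pattern of Gsr over the 4 groups was set against that of all genes with a name in RefSeq. With the 4 group means centred on their own mean, Gsr stood at -0.27 in WT CONT, 0.52 in WT PCN, -0.12 in Pxr-/- CONT and -0.13 in Pxr-/- PCN mice. The 5 genes nearest to it by distance over these 4 values were Mesp2 (0.06), Rassf4 (0.06), Depdc1b (0.07), Ypel2 (0.07) and Clmp (0.08). None of the 5 belongs to the lists of the pathway, and their WT changes ran from 0.74 to 0.87. With 4 groups many genes share such a pattern, and the distance is a description.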

How the data were processed

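Per the file headers, the authors deposited scanner files of 23 arrays from Agilent Feature Extraction 10.10.1.1, with 1 linear intensity per spot, not normalized between arrays, and quality flags. The authors also deposited normalized log2 values of 32574 probes, made per the methods of the study by filtering the median signal, log2 transformation, correction for washing batch and CrossNorm normalization, with details of the stacking not given in the sources used here. Groups, replicate numbers and washing batches came from the labels. Each array held the RNA of 1 mouse.

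Here, 2225 spots with an outlier flag were set to missing, log2 median signals were averaged per probe, and a probe stayed in if over 50% of the arrays in some group had it well above background (32087 probes of 21056 genes, with 83 missing values, none in the genes examined). Signals were quantile normalized and fitted with limma 3.58.1 in R 4.3.3, with a term per group and for washing batch (18 residual degrees of freedom), so fitted changes can differ slightly from differences of means. Two-sided p-values were adjusted by the Benjamini-Hochberg procedure over all kept probes, and a call needed an adjusted p of at most 0.05 and a fold change above 1.5. Quantile normalization makes changes relative to all probes of an array. The number of arrays limits the precision. Scripts were tested on simulated data.

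All 10 genes are named. The 9 with a kept probe were read from the one of highest mean, the second probes of Nfe2l2 and Txnrd1 are given beside it, and Slc7a11 had no kept probe. A gene counted as called if any of its kept probes was. Of the other lists, up to 3 called genes of largest change were named. Abcc3, Gsta4, Cbr3, Ephx1, Htatip2, Chac2, Prdx3 and Mafg were named after their values were seen. Btrc has several probes that disagree, as has Fga in WT mice. The genes, lists and tests were chosen with earlier results of these data known. Coordinates were copied from the probe annotation inside the scanner files (build mm9), and no annotation of that build was used here. Of the gene names tested, 15099 of 21056 (71.7%) were in the RefSeq table of GRCm38, and so were all 10 genes examined. Alternatives covered the signal, background correction, normalization, filter, batch, slide, replicate number, groups in the fit and each array left out. Calls by adjusted p alone were added after seeing the data.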

Additional observations from a re-analysis of the deposited data

Results flagged for a closer look

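For 2 probes a single WT CONT mouse, replicate 2, lay apart from the other 5 by Dixon's test. It read 7.96 for Nqo1, where the next control was at 7.34, and 12.25 for Srxn1, where the next was at 11.79. Such tests were run on 44 combinations of probe and group, and chance alone marks about 1 in 20.

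The response to PCN differed between genotypes for Srxn1 by 0.77 (limma adjusted p = 0.00266) and for Gsr by 0.81 (limma adjusted p = 0.000944).

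Among the probes set aside, A_51_P129502 for Slc7a11 was well above background on 1 of 23 arrays, that of a WT PCN mouse, and on none of the control arrays. The highest raw median signal of this probe was 69.5 and its median 28.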

How the results depend on the processing

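No value that was called, as reported or under an alternative, changed sign. Between 2 and 4 of the 9 measured genes were called in WT mice when single arrays were left out, against 3 with all arrays (Gsr and Gclc without WT PCN replicate 4, where Srxn1 and Hmox1 were lost), and the count was 1 in washing batch 2 alone (Gsr) and 5 by adjusted p alone, a rule added after seeing the data (Gclc and the second Nfe2l2 probe joined). In Pxr-/- mice the count of 1 became 0 in washing batch 1 alone, 0 in washing batch 2 alone, and 0 to 2 with single arrays left out, being 0 without Pxr-/- PCN replicate 4 and 2 without Pxr-/- CONT replicate 4 (Hmox1 joined). For the difference between the responses the count of 2 became 0 in washing batch 1 alone and 0 in washing batch 2 alone, where fewer arrays were fitted, and was 2 without any single array. For PCN mice the genotype count of 2 became 0 in washing batch 2 alone and 1 to 3 with single arrays left out, with 1 without WT PCN replicate 4 (Srxn1). The genotype count in control mice was 0 throughout. Apart from the fits on fewer arrays, the cause of these moves was not tested.

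With the replicate number as a block (13 residual degrees of freedom) the counts were 3, 1, 2, 0 and 2, and no call of a gene examined was gained or lost. The groups share replicate numbers in the labels, but over the 33 pairs of arrays with the same number the correlation of deviations from group means ran from -0.25 to 0.49 and was over 0.1 in 11, so the numbers were not taken to pair the mice.

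Scaling moved the counts over all genes. The authors' values and stacked normalization shifted the median of all probes in WT mice to 0.11 from -0.02, to -0.11 from -0.01 for genotype in control mice, and to -0.18 from 0.01 in PCN mice. Genes higher with PCN in WT mice were 60.1% of those called (895 higher, 595 lower), 83.9% with the authors' values (1577 and 303) and 83.1% with stacked normalization (1528 and 310). For Pxr-/- mice the share was 62.8% (337 and 200), with 74.4% and 74.2%, for the difference of the responses 75.3% (186 and 61), with 88.4% and 89.1%, for genotype in control mice 74.6% (53 and 18), with 42.9% and 43.5%, and in PCN mice 35.3% (177 and 324), with 5.16% and 5.51%. Over all alternatives other than leaving out an array, genes called higher and lower ran from 545 to 2856 and 303 to 3106 in WT mice, 46 to 826 and 21 to 917 in Pxr-/- mice, 81 to 252 and 17 to 134 for the difference, 11 to 81 and 1 to 40 for genotype in control mice, and 18 to 1005 and 111 to 1188 in PCN mice. The highest counts were mostly those by adjusted p alone and the lowest mostly those of single batches. Without Pxr-/- PCN replicate 4, 126 genes were lower in Pxr-/- mice.

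Values that were never called turned their sign in 51 of 759 comparisons of a probe with an alternative, and in 39 of 1265 with an array left out. In WT mice, the brighter Nfe2l2 probe became 0.064 with stacked normalization and 0.076 with the authors' values, Gclm 0.0043 and 0.015, and Keap1 -0.091 in batch 1. In Pxr-/- mice, Nqo1 became 0.021 with processed signals, 0.043 with both stacked normalization and the authors' values and 0.18 in batch 2 (-0.082 to 0.10 with an array left out), Gsr 0.0062 with normexp, 0.031 with stacked normalization, 0.032 with the authors' values and 0.031 in batch 2 (-0.048 to 0.033), the brighter Nfe2l2 probe 0.060 in batch 1 (-0.12 to 0.0011) and Keap1 -0.026 in batch 2.

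For the difference of the responses, the brighter Nfe2l2 probe became 0.061 with processed signals, 0.0013 with normexp, 0.0026 with median scaling, 0.082 with stacked normalization, 0.089 with the authors' values and 0.18 in batch 2 (-0.081 to 0.049), and the second probe -0.028 in batch 1 (-0.0077 to 0.16). Keap1 became 0.016 with processed signals, 0.030 with median scaling, 0.10 with stacked normalization, 0.11 with the authors' values, 0.00067 with no filter, 0.0056 without the batch term, 0.0040 with slide as a block and 0.26 in batch 2 (-0.043 to 0.048). Hmox1 became -0.15 in batch 2 (-0.043 to 0.21), and Txnrd1 0.0027 with the authors' values, its other probe being at 0.0055 there and at 0.28 in batch 2.

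For genotype in control mice, the second Nfe2l2 probe became -0.048 with stacked normalization and -0.047 with the authors' values, Srxn1 -0.11 with each of these and -0.050 in batch 2 (-0.0030 to 0.10), and in batch 1 Nqo1 became 0.073 (-0.18 to 0.033) and Hmox1 0.16. In PCN mice, the second Nfe2l2 probe became -0.027 with processed signals, -0.022 with normexp, -0.010 with median scaling, -0.21 with stacked normalization, -0.22 with the authors' values and -0.11 in batch 2 (-0.065 to 0.10), Gclm -0.037 with stacked normalization and -0.049 with the authors' values, and in batch 1 Keap1 became 0.11 and the other Txnrd1 probe 0.081. The cause was not tested.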
